A study of Caenorhabditis elegans with 10 samples.

Results

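The comparison described here set the double mutant R9Qunc-16 against its parent R9Q in Caenorhabditis elegans. Libraries were chosen by their titles, 2 of R9Qunc-16 and 2 of R9Q, which made 4 of the 10 whole-animal RNA-seq libraries of the study. R9Q animals carry unc-104(R9Q), a missense change in the motor gene unc-104. R9Qunc-16 animals carry the same change together with a mutation in unc-16 whose allele the labels do not name. The other groups, of 2 libraries each, served as reference for single genes. These were WT, and the strains R9QT102I and R9QG265R, in which a second change within unc-104 accompanies R9Q. No animal was treated, and the labels give neither stage nor age nor whether a strain's libraries are from separate cultures, so a p-value here reflects only the spread among these libraries, which may be technical. The study made them to compare the unc-104 mRNA level of its strains.

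UNC-104 is the kinesin-3 motor, known as KIF1A in mammals, that carries synaptic vesicle precursors along axons to synapses. UNC-16 is the worm member of the JIP3 family of scaffold proteins, which bind JNK kinases and kinesin-1 and act in the axonal traffic of organelles such as lysosomes. Whole-animal RNA reports on all tissues together, of which neurons are a small part. In whole animals, fewer cells of a type and less RNA per cell cannot be told apart.

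The 4 libraries held 6239272 and 7160785 assigned counts for R9Q and 6847045 and 7069246 for R9Qunc-16. A count of 0 in a library allowed up to 3 counts, or 0.419 to 0.481 CPM (counts scaled to a common library size), which covers counting error only. The R9Q libraries lay close together and the R9Qunc-16 libraries did not: of 12267 tested genes, 323 differed by more than 2-fold between the R9Q libraries and 4392 between the R9Qunc-16 libraries. Transcripts of the mitochondrial genome took 3.59 and 3.69% of counts in R9Q, 1.58% in R9Qunc-16 replicate 1 and 0.0194% in replicate 2. A share as low as in this replicate 2 was not particular to R9Qunc-16. It was 0.0238% in R9QT102I replicate 1 and 0.02% in R9QG265R replicate 2, with 4.95 and 5.51% in the other library of each strain. Genes of molting and of the apical extracellular matrix (20, of which 14 were tested) had a summed level of 312 and 303 CPM in R9Q. Their sum was 532 CPM in R9Qunc-16 replicate 1 and 3835 CPM in replicate 2. Among the 4 libraries compared, both measures therefore moved with the strain and, further, with R9Qunc-16 replicate 2. Their part in the results below was not tested. For that reason a gene is described as separated only when both R9Qunc-16 libraries lay on the same side of both R9Q libraries, with the nearest pair at least 2-fold apart on CPM + 0.5. All 12 protein-coding mitochondrial genes were lower in both R9Qunc-16 libraries than in both R9Q libraries, 8 of them separated. Of all tested genes 29.7% were lower in this way and 4.23% were separated downward.

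Both R9Qunc-16 libraries were separated from both R9Q libraries upward for 492 genes (4.01% of those tested) and downward for 519 (4.23%). With any gap at all, 2802 genes (22.8%) lay above and 3645 (29.7%) below. The edgeR quasi-likelihood test, with Benjamini-Hochberg adjustment over all 12267 genes, called 50 genes higher (0.408%) and 32 lower (0.261%) in R9Qunc-16 at an adjusted p under 0.05. All 82 called genes were also separated by at least 2-fold. The called genes included 6 glutathione transferases and the C-type lectin clec-68 among those lower, and hsp-70, an inducible heat shock protein, tbb-6, a stress-induced tubulin, 3 abu genes of the pharyngeal cuticle and the C-type lectins clec-60 and clec-61 among those higher. The calls rest on a spread shared by all 5 strains, to which WT and R9Q lend a small one: with the 4 libraries of the comparison alone, without the WT libraries, or without either library of WT or of R9Q, 0 genes were called, and without either R9QT102I library 12 were. Leaving out R9QG265R replicate 1 or 2 gave 256 or 269 called genes, and leaving out R9Qunc-16 replicate 1 or 2 gave 472 or 681. Of the 82 called genes 28 were followed through 21 alternative settings, and 0 of them changed direction. Since all called genes were separated by at least 2-fold, their direction could hardly change, and nothing is read from this. With no adjustment 2338 genes had a p under 0.05.

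**Figure D1:**
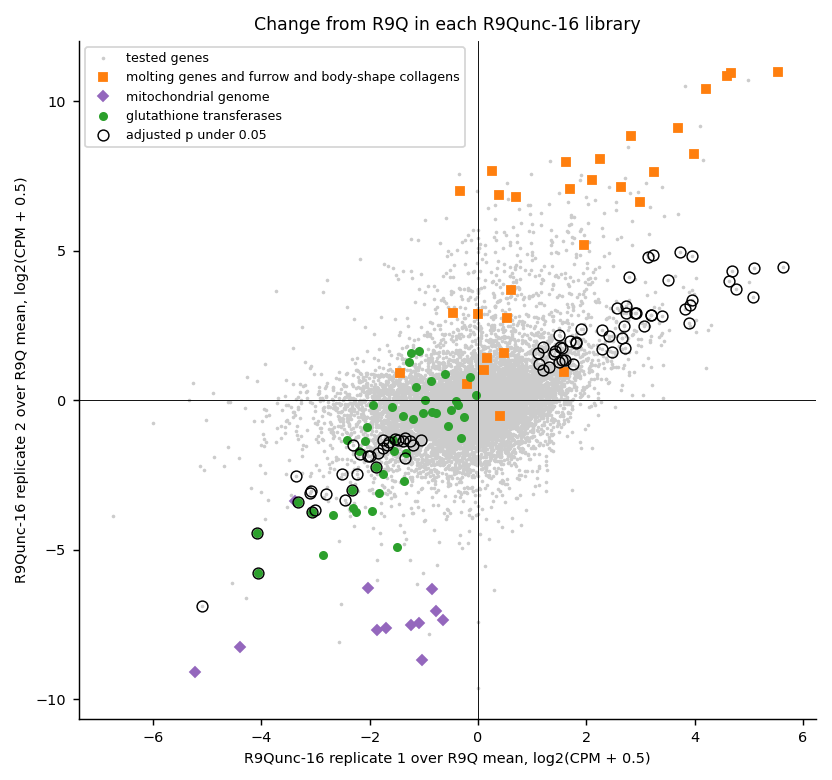
Each point is a tested gene, placed by its log2 ratio to the R9Q mean, on CPM + 0.5, in R9Qunc-16 replicate 1 (horizontal axis) and replicate 2 (vertical axis). The circled genes, those with an adjusted p under 0.05, lie near the diagonal; the molting and collagen genes lie higher in replicate 2 than in replicate 1, and the mitochondrial genes lower.

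The mutated genes themselves were barely measured. unc-104 (chromosome II, 6994987 to 7010625, ce11) had 0 counts on each of its 4 transcripts in all 10 libraries. Reads were counted per transcript and a read shared by several was not assigned, so this 0 is no level of unc-104 mRNA. unc-16 (chromosome III, 9546258 to 9557450) was counted on 2 of its 20 transcripts. It stood at 4.69 and 5.14 CPM in R9Q and at 6.13 and 1.47 CPM in R9Qunc-16. The R9Qunc-16 values fell on both sides of the R9Q values (log2 fold change -0.38, SE 1.06, adjusted p = 0.888), and without R9Qunc-16 replicate 2 the log2 fold change was 0.30. Since the allele is not named, this neither checks the strain label nor goes against it. The counting rule also shapes which genes could be seen: 81 of the 82 called genes have 1 transcript in the files, as do 85.19% of tested genes.

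Glutathione transferases, the enzymes that attach glutathione to electrophiles, had the most calls of the 61 gene lists examined. Of 49 family members in the files 44 passed the count filter. In both R9Qunc-16 libraries 33 of these lay below both R9Q libraries, 21 of them by 2-fold or more, 0 lay above, and 11 overlapped. Of all tested genes 29.7% lay below, 4.23% by 2-fold or more, and 22.8% lay above. Of the 44, 6 were called lower, where 0.261% of all tested genes were, and 0 higher. The median log2 fold change of the tested members was -1.17, against -0.04 over all tested genes. The summed level of the family was 6128 and 6174 CPM in R9Q and 2101 and 2503 CPM in R9Qunc-16, with both R9Qunc-16 libraries well below both R9Q libraries. The other strains lay between: WT at 5220 and 5115 CPM, R9QT102I at 4012 and 3168 CPM and R9QG265R at 4858 and 3888 CPM. A lower sum than in R9Q was thus not particular to R9Qunc-16.

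gst-4, a widely used reporter of the SKN-1 oxidative stress response (chromosome IV, 10142225 to 10143099), stood at 573 and 571 CPM in R9Q and 33.2 and 26.1 CPM in R9Qunc-16. It fell by 4.27 on the log2 scale (SE 0.48, adjusted p = 0.0248). In WT it stood at 267 and 247 CPM, so R9Q lay above WT and R9Qunc-16 below it. In the other suppressed strains gst-4 held 177 and 194 CPM in R9QT102I and 484 and 174 CPM in R9QG265R, all above both R9Qunc-16 values. The test of that difference, R9Qunc-16 against the mean of R9QT102I and R9QG265R, gave a log2 difference of -3.06 (adjusted p = 0.0253). gst-25 was at 63 and 66.0 CPM in R9Q and 3.37 and 0.668 CPM in R9Qunc-16 (log2 fold change -5.0, SE 0.74, adjusted p = 0.0392). For gst-25 the difference from the other suppressed strains did not pass the test (-1.77, adjusted p = 0.233).

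The other 4 called members lie in 1 cluster. On chromosome II 9 tested glutathione transferase genes lie side by side between 13608154 and 13630887. Of these, 4 were called lower, 6 were separated downward and 2 overlapped, beside 0.261% called lower and 4.23% separated downward of all tested genes. gst-15, gst-14, gst-12 and gst-16 are the called genes of the cluster. gst-14 went from 176 and 178 CPM to 17.3 and 16.2 CPM (log2 fold change -3.40, SE 0.32, adjusted p = 0.0144). gst-12 went from 545 and 549 CPM to 65.0 and 40.3 CPM (-3.38, SE 0.37, adjusted p = 0.0246). gst-16 fell by 2.67 on the log2 scale (adjusted p = 0.0346) and gst-15 fell by 2.08 (adjusted p = 0.0249). Within the same run, gst-24 was at -0.41 (adjusted p = 0.576), and gst-17 and gst-18, which overlap each other in position, were near the floor in every library compared. These last 3 genes were picked for their position after their values were seen. Both R9QT102I and R9QG265R also held less gst-12 than R9Q, at 72.7 and 50.2 CPM and at 85.1 and 50.1 CPM, and the difference of R9Qunc-16 from them was -0.29 (adjusted p = 0.684). For gst-14, with 33 and 17.9 CPM in R9QT102I and 36.3 and 48.7 CPM in R9QG265R, it was -0.97 (adjusted p = 0.148). Members of this family resemble each other in sequence, and how shared reads were split between them cannot be read from the counts.

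**Figure D2:**
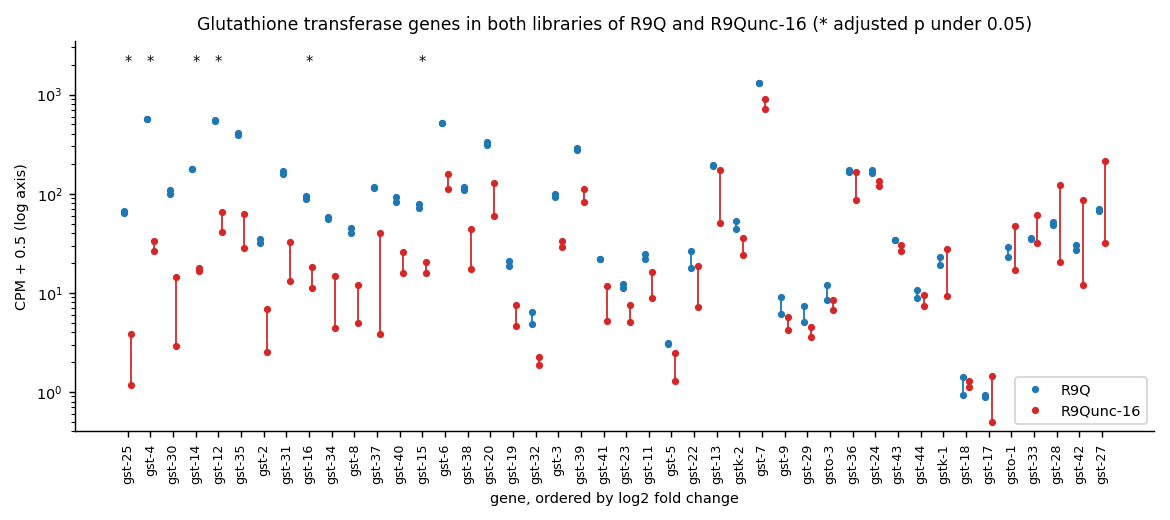
Values of the 44 tested glutathione transferase genes in the 2 libraries of R9Q and the 2 of R9Qunc-16 as CPM + 0.5 on a log axis, ordered by log2 fold change, with a line joining the libraries of a strain and an asterisk over the 6 genes with an adjusted p under 0.05. At the left the R9Qunc-16 values lie well below those of R9Q, and at the right the values of the strains come together or overlap.

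Among 61 tested cytochrome P450 genes 8 were separated upward and 2 downward, and among 50 tested UDP-glucuronosyltransferases 3 and 2, beside 4.01% and 4.23% of all tested genes. The UDP-glucuronosyltransferase counts and the downward cytochrome P450 count lie near these shares. The upward cytochrome P450 count is a description. It holds cyp-13A4, which had 1 and 1 counts in R9Q, passed the count filter only through other libraries and could lie only higher. cyp-35B2, a cytochrome P450, was called lower: it held 5.27 and 5.02 CPM in R9Q and 0.306 and 0.134 CPM in R9Qunc-16 (log2 fold change -4.46, SE 0.72, adjusted p = 0.0461), the latter below the level of 3 counts. cyp-13A8 was at 3.51 and 4.63 CPM in R9Q and 40.6 and 17.8 CPM in R9Qunc-16 without a call (2.83, adjusted p = 0.0501). ugt-41 was called higher (2.07, adjusted p = 0.0392), but R9QT102I and R9QG265R held 33.9 to 54.6 CPM of it, close to the 64.5 and 43.5 CPM of R9Qunc-16.

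Among genes of protein folding and stress, hsp-70 and tbb-6 were called higher. hsp-70, a heat-inducible cytosolic chaperone (chromosome I, 9320325 to 9322519), was at 1.61 and 1.29 CPM in R9Q and 95.6 and 42.3 CPM in R9Qunc-16. It was higher by 5.56 on the log2 scale (SE 0.64, adjusted p = 0.0249). No other strain came near these values: WT held 1.37 and 0.930 CPM, R9QT102I 0.628 and 0.993 CPM and R9QG265R 3.67 and 1.51 CPM, and the difference from the mean of the other suppressed strains was 5.55 (adjusted p = 0.00467). Close copies of this gene exist in the genome, and reads that match them equally could not be placed. hsp-16.41, a small heat shock protein, was at 7.61 and 4.63 CPM in R9Q and 99.1 and 82 CPM in R9Qunc-16, which were separated but not called (3.89, SE 1.47, adjusted p = 0.208). Of the 10 inducible heat shock genes listed, 5 were tested, and hsp-12.6 and hsp-12.3 lay lower in both R9Qunc-16 libraries, at log2 fold changes of -1.72 (adjusted p = 0.14) and -0.99 (adjusted p = 0.244).

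tbb-6, a beta-tubulin isotype known to be induced by mitochondrial stress through the p38 kinase PMK-3 (chromosome V, 12261531 to 12263368), stood at 34.9 and 38.8 CPM in R9Q and 391 and 260 CPM in R9Qunc-16. The log2 fold change was 3.14 (SE 0.40, adjusted p = 0.0308). WT held 7.28 and 5.11 CPM, R9QT102I 7.85 and 5.96 CPM and R9QG265R 25.2 and 12.4 CPM, so R9Qunc-16 stood highest of the 5 strains and R9Q next. Against the mean of the other suppressed strains the difference was 4.83 (adjusted p = 0.00217). No other of the 7 tested genes of the mitochondrial stress list was called, with spg-7 at 0.60 (adjusted p = 0.166), lonp-1 at 0.64 (adjusted p = 0.218) and timm-23, a part of the mitochondrial import machinery, at -0.37 (adjusted p = 0.526). hsp-6, a mitochondrial chaperone used as the standard reporter of that stress and picked here for that use, was at 714 and 708 CPM in R9Q and 1297 and 737 CPM in R9Qunc-16 (0.52, adjusted p = 0.408).

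sod-5, a cytosolic superoxide dismutase, was at 8.20 and 7.59 CPM in R9Q, 19.8 and 23 CPM in R9Qunc-16 and 0.758 to 3.35 CPM in the other strains. It was separated upward without a call against R9Q (1.43, adjusted p = 0.111), and differed from the other suppressed strains (3.76, adjusted p = 0.00467). Of 19 tested proteasome genes 13 lay higher in both R9Qunc-16 libraries, 1 lower and 5 overlapped, beside 22.8% higher and 29.7% lower of all tested genes, with a median log2 fold change of 0.82, and none was separated or called. rpn-1, a subunit of the regulatory particle, was at 236 and 244 CPM in R9Q and 519 and 470 CPM in R9Qunc-16 (1.05, adjusted p = 0.0647). All 4 tested chaperones of the endoplasmic reticulum lay higher in both libraries, led by pdi-6 (1.26, adjusted p = 0.225). R9Qunc-16 held 944 and 1733 CPM of pdi-6, R9QT102I 795 and 600 CPM and R9QG265R 832 and 2415 CPM (difference 0.33, adjusted p = 0.755). The summed proteasome level was 2531 and 2545 CPM in R9Q and 3390 and 5291 CPM in R9Qunc-16, the higher value in the replicate with the high molting genes. It was 3370 and 2569 CPM in R9QT102I and 3180 and 5149 CPM in R9QG265R, so sums above R9Q were also found in the other suppressed strains.

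**Figure D3:**
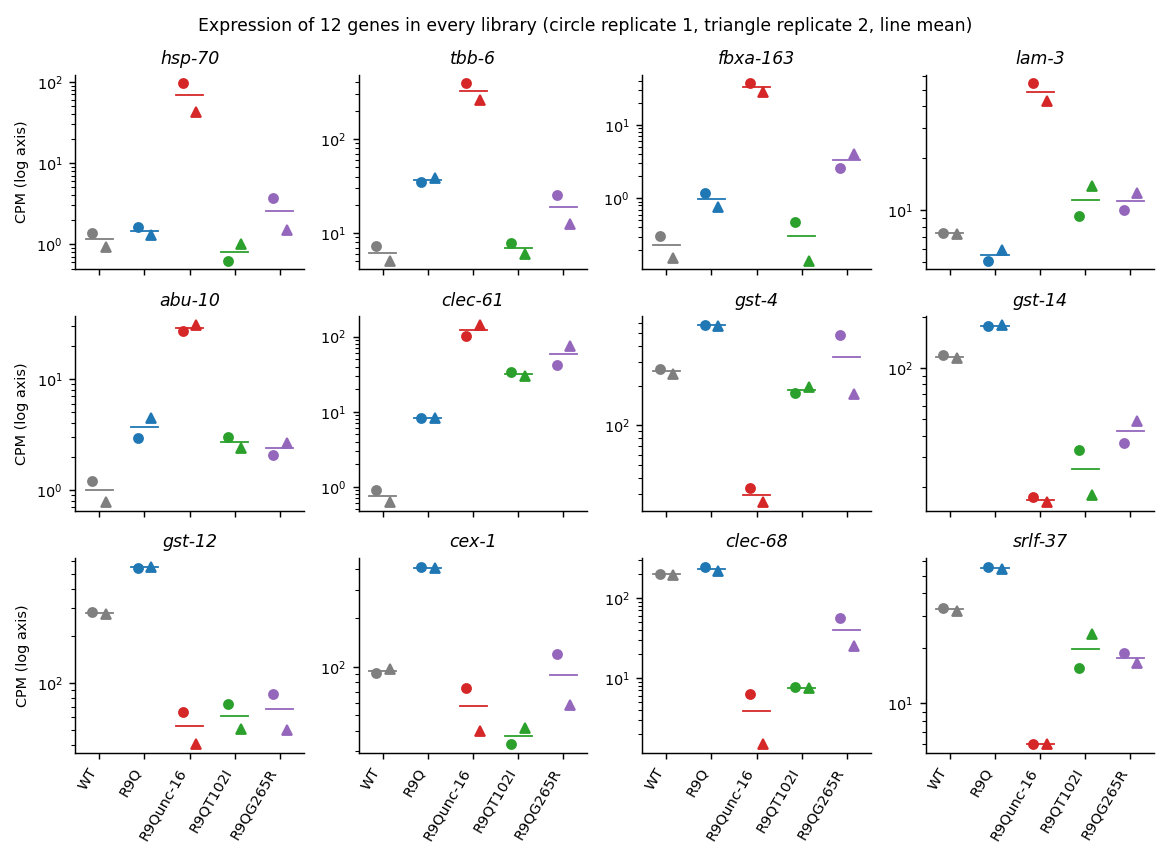
CPM of 12 genes on log axes in each library of the 5 strains, with circles for replicate 1, triangles for replicate 2 and a line at the mean. For hsp-70, tbb-6, fbxa-163, lam-3 and abu-10 the R9Qunc-16 libraries stand above those of every other strain, for gst-4, gst-14, clec-68 and srlf-37 they stand lowest, and for gst-12 and cex-1 their range overlaps that of another suppressed strain.

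The abu genes code for glutamine- and asparagine-rich proteins of the cuticle that lines the pharynx. Of 14 in the files 7 passed the count filter, all 7 were separated upward and 3 were called, abu-1, abu-10 and abu-11, beside 4.01% separated upward and 0.408% called higher of all tested genes. For abu-1 and abu-15 the direction was fixed by the count filter, which genes near 0 in R9Q pass only through other libraries, so nothing is read from the 7 of 7. abu-10 was at 2.93 and 4.50 CPM in R9Q and 27 and 30.5 CPM in R9Qunc-16 (log2 fold change 2.94, SE 0.41, adjusted p = 0.0349). abu-11 was at 1.76 and 1.67 CPM in R9Q and 14.7 and 38.1 CPM in R9Qunc-16 (3.93, SE 0.54, adjusted p = 0.0349). abu-1 had 0 counts in both R9Q libraries and 40 and 112 counts in R9Qunc-16 (adjusted p = 0.0409), which was at least 12.1-fold higher when 3 counts per R9Q library are taken as the floor. The R9Qunc-16 libraries lay far apart for abu-14, at 31.3 and 416 CPM, and abu-13, at 17.5 and 206 CPM, both picked after their values were seen. abu-10 and abu-11 also stood above the other suppressed strains, by 3.49 (adjusted p = 0.00547) and 2.45 (adjusted p = 0.0437). pqn-29, another gene of a glutamine- and asparagine-rich protein, had 2 counts in each R9Q library and was called higher (adjusted p = 0.042).

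Other cuticle genes were separated without being called. Of the 14 tested molting and apical matrix genes 6 were separated upward and 0 downward, of 6 furrow collagens 4 and 0, of 10 body-shape collagens 5 and 0, and of 35 hedgehog-related genes 8 and 1, beside 4.01% and 4.23% of all tested genes. Members near 0 in R9Q, such as dpy-13 with 3 and 5 counts and lpr-3 with 6 and 6, passed the count filter only through libraries where they are high and could not be separated downward, so these counts are descriptions and support no direction. The replicates differed widely. noah-2, a component of the apical matrix made before each molt, was at 2.05 and 2.44 CPM in R9Q and 42.9 and 825 CPM in R9Qunc-16 (log2 fold change 7.58, SE 1.98, adjusted p = 0.112). lpr-3, a lipocalin of the same matrix, was at 0.879 and 0.772 CPM in R9Q and 16.6 and 733 CPM in R9Qunc-16 (8.80, SE 2.63, adjusted p = 0.141). dpy-13, a body-shape collagen, was at 0.439 and 0.643 CPM in R9Q and 25.9 and 2033 CPM in R9Qunc-16 (adjusted p = 0.126). R9QT102I held 202 and 210 CPM of noah-2, and R9QG265R held 5.59 and 209 CPM, so high levels of noah-2 were also found in other suppressed strains (difference 1.54, adjusted p = 0.594). The median member of the molting list was at 1.98 and 2.57 CPM in R9Q, 15.4 and 232 CPM in R9Qunc-16, 80.3 and 80.6 CPM in R9QT102I and 3.99 and 61 CPM in R9QG265R. Of 98 tested col collagens 13 were separated upward and 2 downward, and col-10, chosen after its values were seen, was called higher: 395 and 376 CPM in R9Q and 1359 and 1441 CPM in R9Qunc-16 (1.86, adjusted p = 0.0392), with WT at 1110 and 1093 CPM.

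The basement membrane list had 6 tested members, of which lam-3 was called. lam-3 codes for a laminin alpha chain, a sheet-forming protein of basement membranes (chromosome I, 10608466 to 10621435). It stood at 5.13 and 5.92 CPM in R9Q and 54.4 and 43.0 CPM in R9Qunc-16, a log2 fold change of 3.14 (SE 0.34, adjusted p = 0.0246). WT held 7.43 and 7.28 CPM, and R9QT102I and R9QG265R between 9.27 and 13.8 CPM, and R9Qunc-16 differed from the latter by 2.09 (adjusted p = 0.0166). The partner chains lam-1 and lam-2 were at 0.60 (adjusted p = 0.232) and 0.85 (adjusted p = 0.315).

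Among 112 tested C-type lectins, sugar-binding proteins many of which respond to infection, 2 were called higher and 1 lower. Separated members numbered 11 upward and 8 downward, where 4.01% and 4.23% of all tested genes were. clec-60 and clec-61 lie 1 after the other on chromosome II (10480043 to 10481874 and 10488730 to 10490537). clec-61 was at 8.35 and 8.36 CPM in R9Q and 101 and 142 CPM in R9Qunc-16 (log2 fold change 3.86, SE 0.36, adjusted p = 0.0144). clec-60 was at 38.7 and 30.9 CPM in R9Q and 538 and 1000 CPM in R9Qunc-16 (4.47, SE 0.56, adjusted p = 0.0297). Both were low in WT, clec-61 at 0.910 and 0.620 CPM, so R9Q lay above WT and R9Qunc-16 above R9Q, and the other suppressed strains lay between for clec-61, at 29.5 to 75.8 CPM (difference 1.49, adjusted p = 0.0525). For clec-60 R9QT102I held 54.8 and 58.1 CPM and R9QG265R 223 and 646 CPM, the last above R9Qunc-16 replicate 1 (difference 2.30, adjusted p = 0.0517). clec-68 went the other way, from 244 and 221 CPM in R9Q and 200 and 195 CPM in WT to 6.28 and 1.47 CPM in R9Qunc-16 (-5.92, SE 0.69, adjusted p = 0.0249). R9QT102I, at 7.70 and 7.38 CPM, and R9QG265R, at 55.6 and 24.8 CPM, also lay below R9Q for clec-68 (difference -2.18, adjusted p = 0.126).

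The pals genes, a nematode family induced by intracellular pathogens, had 26 tested members of 38 in the files. In R9Qunc-16 16 lay higher in both libraries, 8 of them separated, 0 lay lower and 10 overlapped, beside 22.8% higher and 4.01% separated upward of all tested genes. Some of the separated members, such as pals-5 with 3 and 2 counts in R9Q, passed the count filter only through other libraries and could lie only higher, so the count is a description. The tested members had a median log2 fold change of 1.05, and median log2 ratios to the R9Q mean of 1.02 in replicate 1 and 0.96 in replicate 2. pals-14 was called, at 4.39 and 2.57 CPM in R9Q and 28.7 and 29 CPM in R9Qunc-16 (3.05, SE 0.40, adjusted p = 0.0331). pals-5, the usual reporter of the response, was at 0.439 and 0.257 CPM in R9Q and 4.44 and 4.81 CPM in R9Qunc-16 (3.67, adjusted p = 0.0991). For pals-14 the other suppressed strains held 5.67 to 12.4 CPM, and the difference from them did not pass the test (1.62, adjusted p = 0.06). irg-2, an infection response gene, was called higher, from 22.3 and 21.5 CPM to 71.7 and 87.2 CPM (1.86, SE 0.30, adjusted p = 0.0466), and stood above the other suppressed strains (3.14, adjusted p = 0.00369), which held 5.18 to 16 CPM. fbxa-163, of the large F-box A family of ubiquitin ligase adaptors, went from 1.17 and 0.772 CPM to 36.9 and 28.5 CPM (5.05, SE 0.56, adjusted p = 0.0248) and differed from the other suppressed strains (4.99, adjusted p = 0.00467); of the 114 tested members of its family 7 were separated upward and 2 downward, near or below the 4.01% and 4.23% of all tested genes.

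Of 11 tested lysozymes 4 were separated upward and 1 downward, beside 4.01% and 4.23% of all tested genes, with none called. Members near 0 in R9Q, such as lys-10 with 0 and 0 counts and ilys-2 with 2 and 5, passed the count filter only through other libraries. They could lie only higher, so the upward count is a description. ilys-3, an invertebrate-type lysozyme, was at 1.32 and 0.772 CPM in R9Q and 13 and 70.9 CPM in R9Qunc-16 (5.31, adjusted p = 0.0644). ilys-4 was at 134 and 149 CPM in R9Q and 53.2 and 64.1 CPM in R9Qunc-16 (-1.27, adjusted p = 0.0589). The epidermal antimicrobial peptides, made by skin after wounding or fungal infection, lay lower in both R9Qunc-16 libraries for 12 of 16 tested members, where 29.7% of all tested genes did. Of these, 5 were separated, where 4.23% of all were, and none was called. The replicates were unlike: the summed level was 1693 and 1704 CPM in R9Q, 96.4 CPM in R9Qunc-16 replicate 1 and 1500 CPM in replicate 2. fipr-4, of the fungus-induced protein family, was steady at 10.4 and 10.7 CPM in R9Qunc-16 against 61.1 and 62.8 CPM in R9Q (-2.55, SE 0.39, adjusted p = 0.0404). srlf-37 was called lower, at 55.6 and 54.3 CPM in R9Q and 5.98 and 6.01 CPM in R9Qunc-16 (-3.19, SE 0.29, adjusted p = 0.0144), and it differed from the other suppressed strains (-1.65, adjusted p = 0.0374).

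Most tested nlp and flp neuropeptide genes lay lower in R9Qunc-16. These genes encode the precursors of peptide messengers that are packed in dense-core vesicles, a cargo of UNC-104. Of 47 tested nlp genes 41 lay lower in both libraries, 1 higher and 5 overlapped, against 29.7% of all tested genes that lay lower. Of these, 7 were separated downward and 2 were called, nlp-58 and nlp-68, beside 4.23% separated downward and 0.261% called lower of all tested genes. Of 22 tested flp genes, which encode FMRFamide-like peptides, 21 lay lower and 1 overlapped, 2 were separated and none was called. The same shares of all tested genes stand beside these counts. The median log2 fold changes were -1.08 and -0.88. nlp-58 was at 123 and 123 CPM in R9Q and 24.5 and 42.7 CPM in R9Qunc-16 (-1.87, SE 0.27, adjusted p = 0.0379). nlp-68, picked after its values were seen, was at 107 and 100 CPM in R9Q and 49.5 and 40.5 CPM in R9Qunc-16 (-1.21, SE 0.20, adjusted p = 0.0461). flp-9 was at 1113 and 1113 CPM in R9Q and 453 and 548 CPM in R9Qunc-16, a separation without a call (-1.15, adjusted p = 0.0746). For both called genes WT and the other suppressed strains stood between: nlp-58 held 82.4 and 82.8 CPM in WT and 62.3 to 69.1 CPM in R9QT102I and R9QG265R (difference -0.95, adjusted p = 0.116). Of 25 tested insulin-like peptide genes 11 lay lower, 2 higher and 12 overlapped, beside 29.7% lower and 22.8% higher of all tested genes. Their median log2 ratio to the R9Q mean was -1.19 in replicate 1 and -0.10 in replicate 2. The summed nlp level was 5516 and 5579 CPM in R9Q and 2380 and 3390 CPM in R9Qunc-16. The other strains lay between, with WT at 4075 and 3870 CPM, R9QT102I at 4645 and 3542 CPM and R9QG265R at 3854 and 4806 CPM. The summed flp level was 5892 and 5903 CPM in R9Q, 2889 and 3675 CPM in R9Qunc-16 and 4055 and 3909 CPM in WT. R9Q thus held the highest sums of the 5 strains.

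Other neuronal lists had medians closer to 0, a difference that was not tested. Of 17 tested synaptic vesicle genes 9 lay lower, 1 higher and 7 overlapped, with a median of -0.55, and 0 were separated. Over all tested genes 29.7% lay lower and 22.8% higher, and 4.23% were separated downward. snb-1, the synaptobrevin of the vesicle, was at 880 and 798 CPM in R9Q and 455 and 688 CPM in R9Qunc-16 (-0.55, adjusted p = 0.27). Of 10 genes of neurotransmitter synthesis and loading 8 lay lower, where 29.7% of all tested genes did, and 2 overlapped (median -0.75). bas-1, an enzyme of serotonin and dopamine synthesis with 8 and 8 counts in R9Q and 2 and 4 in R9Qunc-16, was at -1.34 (adjusted p = 0.617). The GABA transport genes unc-46 and snf-11 were at -0.85 (adjusted p = 0.252) and -0.79 (adjusted p = 0.194). Genes of cilia, a mark of sensory neurons, had a median of 0.05, with 24 of 35 overlapping. The 8 tested pan-neuronal genes had a median of -0.26, with 5 lower, beside 29.7% of all tested genes, and 3 overlapping. All 15 genes of that list, tested or not, summed to 1323 and 1234 CPM in R9Q and 1049 and 1015 CPM in R9Qunc-16. Whether the neuropeptide values follow the share of neuronal RNA was not tested. cex-1, which codes for calexcitin, a calcium-binding protein, was called lower, from 413 and 406 CPM to 73.8 and 39.8 CPM (-2.85, SE 0.42, adjusted p = 0.0392), and here WT, at 91.6 and 96.6 CPM, and R9QT102I, at 33.1 and 41.6 CPM, were low as well (difference from the other suppressed strains -0.02, adjusted p = 0.986).

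**Figure D4:**
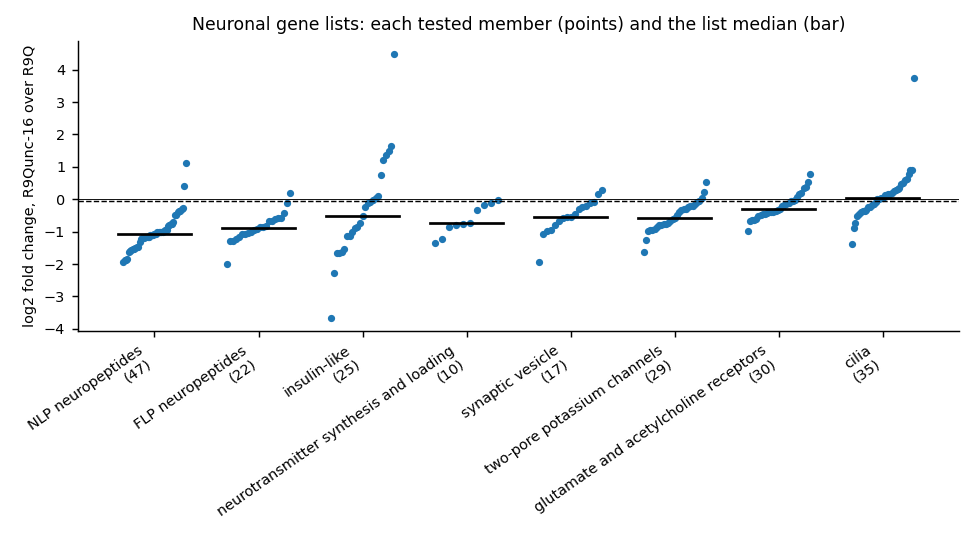
Log2 fold change of R9Qunc-16 over R9Q for each tested member (points, in order of value) of 8 neuronal gene lists, with the list median as a bar and a dashed line at the median of all tested genes (-0.04). The medians of the nlp (-1.08) and flp (-0.88) neuropeptide lists lie lowest, and that of cilia genes (0.05) lies near the line.

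UNC-16 binds kinases of the JNK pathway. Of 28 genes of the JNK and p38 kinase pathways 18 were tested and none was called. In both R9Qunc-16 libraries 3 lay higher and 7 lower, where 22.8% and 29.7% of all tested genes did, and 8 overlapped. Of these, 1 was separated upward and 2 downward, where 4.01% and 4.23% of all tested genes were. jkk-1, the kinase that activates JNK-1, was at 39.4 and 42.8 CPM in R9Q and 30.2 and 28.6 CPM in R9Qunc-16 (-0.48, adjusted p = 0.342). jnk-1 was near the floor, at 2.05 and 3.47 CPM in R9Q and 0.613 and 0.134 CPM in R9Qunc-16 (adjusted p = 0.439). kreg-1, named for its regulation by the JNK-like kinase KGB-1, was at 9.96 and 12.4 CPM in R9Q and 4.14 and 3.87 CPM in R9Qunc-16 (-1.47, adjusted p = 0.137), while WT held 89.3 and 81.8 CPM. fos-1, a transcription factor of the AP-1 family, was at 2.34 and 2.19 CPM in R9Q and 17 and 8.55 CPM in R9Qunc-16 (2.49, adjusted p = 0.0781). Of 26 tested kinesin and dynein genes 18 overlapped and 1 was separated, klp-19, a chromosome-associated kinesin (1.66, adjusted p = 0.0565).

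Lysosomes are among the organelles whose axonal traffic involves JIP3 scaffolds. Of 28 tested lysosome genes 6 were separated upward and 1 downward, where 4.01% and 4.23% of all tested genes were, and none was called. asp-17, with 3 and 4 counts in R9Q, passed the count filter only through other libraries and could be separated only upward. asp-15, with 0 and 2 counts in R9Qunc-16, passed it only through R9Q and could be separated only downward. Both counts are therefore descriptions. Of 33 tested genes of endosome and Golgi traffic 15 lay higher, 5 lower and 13 overlapped, beside 22.8% and 29.7% of all tested genes, and 1 was separated upward. cpr-1, a cathepsin B-like protease, was at 261 and 271 CPM in R9Q and 1247 and 5881 CPM in R9Qunc-16 (3.74, SE 0.96, adjusted p = 0.109), and cpr-4 at 346 and 324 CPM and 1289 and 3910 CPM (2.96, adjusted p = 0.111). WT held 1034 and 997 CPM of cpr-1 and 1722 and 1750 CPM of cpr-4, so R9Q lay below WT for both genes. R9QT102I held 1681 and 1542 CPM of cpr-1 and R9QG265R 646 and 4049 CPM (difference 0.87, adjusted p = 0.616). For cpr-4 these strains held 3163 and 2640 CPM and 483 and 2371 CPM (difference 0.35, adjusted p = 0.829). Median log2 fold changes were 0.01 for 10 tested vacuolar ATPase subunits and 0.10 for 18 autophagy genes, and 0 members of either list were separated.

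Among genes of lipid handling, far-3 and far-4, neighbouring genes of fatty acid and retinol binding proteins on chromosome V (12996787 to 12997522 and 12998427 to 12999659), were called higher. far-3 was at 22.8 and 21.1 CPM in R9Q and 141 and 93.2 CPM in R9Qunc-16 (2.41, SE 0.38, adjusted p = 0.0418), but R9QT102I held 548 and 431 CPM. far-4 was at 0.879 and 1.80 CPM in R9Q and 15.8 and 12.3 CPM in R9Qunc-16 (3.36, SE 0.53, adjusted p = 0.042). ech-1.1, of the enoyl-CoA hydratase family of fatty acid oxidation, was at 1.90 and 2.32 CPM in R9Q, 38.5 and 15 CPM in R9Qunc-16 and 31.4 and 29.6 CPM in WT (3.65, SE 0.53, adjusted p = 0.0386). For ech-1.1 the difference from WT was -0.19 (adjusted p = 0.847).

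Among the other called genes, those described next were picked after their values were seen, stand singly and make up no list. knl-2, a centromere protein, was at 53.5 and 44.2 CPM in R9Q and 130 and 142 CPM in R9Qunc-16 (1.47, SE 0.18, adjusted p = 0.0297). ndc-80, a kinetochore subunit, was higher by 1.54 on the log2 scale (adjusted p = 0.0466), ani-1, an anillin of the contractile ring, by 1.54 (adjusted p = 0.0461), and efl-3, an E2F-like factor, by 1.66 (adjusted p = 0.0392). For these 4 genes the difference from the other suppressed strains lay between 0.00 for efl-3 and 0.42 for knl-2, and did not pass the test (adjusted p between 0.246 and 0.998). smc-5, of a DNA repair complex, was at 67.4 and 65.7 CPM in R9Q, 226 and 154 CPM in R9Qunc-16 and 42.6 to 72.3 CPM in the other strains (1.51, SE 0.22, adjusted p = 0.0392; difference 1.45, adjusted p = 0.0175). crn-2 and crn-4, nucleases that take part in the breakdown of DNA in dying cells, were higher by 1.36 (adjusted p = 0.042) and 2.40 (adjusted p = 0.0331), and both stood above the other suppressed strains (1.26, adjusted p = 0.0253, and 2.31, adjusted p = 0.00983). Lists of meiosis and of oocyte and eggshell genes, with 22 tested members each, had medians of 0.40 and 0.46. Of the meiosis genes 0 were separated. Of the oocyte and eggshell genes 1 was separated upward and 1 downward, near the 4.01% and 4.23% of all tested genes.

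**Figure D5:**
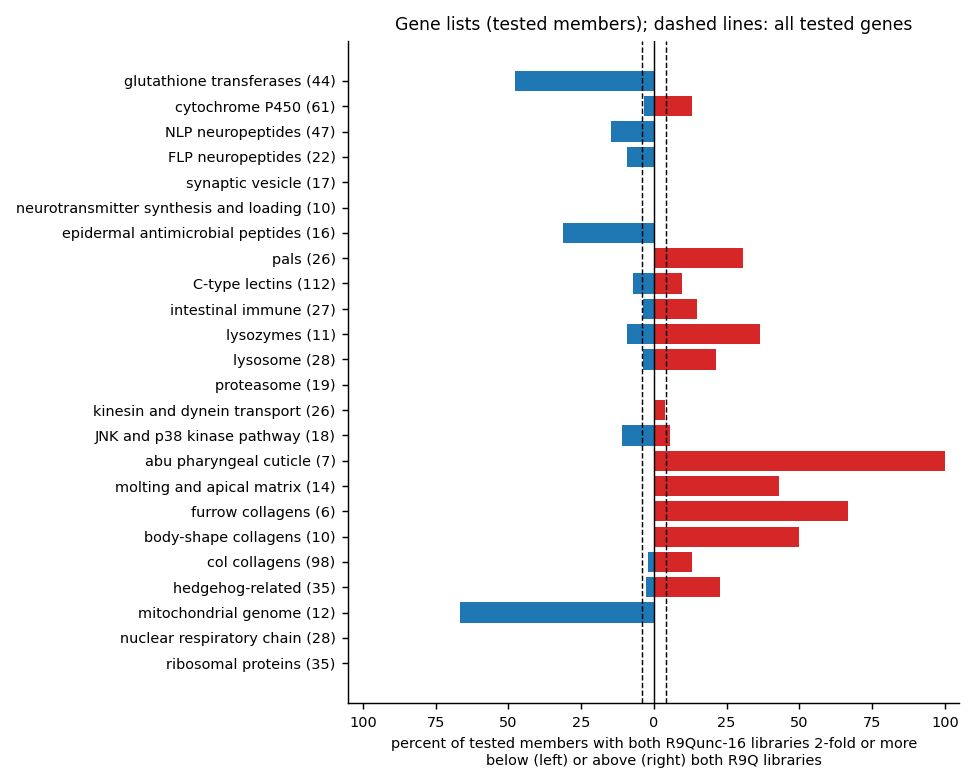
Percent of the tested members of 24 gene lists with both R9Qunc-16 libraries at least 2-fold above both R9Q libraries (right) or below them (left), with the number of tested members in parentheses and dashed lines at the shares over all tested genes (4.01% upward, 4.23% downward). Glutathione transferases (21 of 44) and mitochondrial genes (8 of 12) have the longest bars to the left. The long bars to the right (abu genes, 7 of 7, and the molting, collagen, lysozyme and pals lists) hold members near 0 in R9Q. These passed the count filter only through other libraries, so that they could lie only upward.

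Against WT, the same test called 547 genes (4.46%) in R9Qunc-16, and against the mean of R9QT102I and R9QG265R 107 genes (0.872%). These comparisons share the R9Qunc-16 libraries with the one against R9Q, so their results are given only gene by gene. gst-4, gst-12, gst-14 and srlf-37 lay below WT as well, by -3.12 (adjusted p = 0.0168), -2.41 (adjusted p = 0.0176), -2.80 (adjusted p = 0.00815) and -2.45 (adjusted p = 0.00826). hsp-70, tbb-6, clec-60 and clec-61 lay above WT, by 5.89 (adjusted p = 0.00749), 5.71 (adjusted p = 0.00243), 8.88 (adjusted p = 0.00243) and 7.27 (adjusted p = 0.00168). Without the WT libraries, the comparison with the other suppressed strains called 23 genes in place of 107.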

How the data were processed

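Raw counts per transcript, made with HTSeq 0.9.1, were deposited by the authors for each of 10 libraries. The submitters' processing notes name Trim Galore 0.4.4, STAR 2.5.4b and the build ce11; the strand setting and annotation release are not given in the sources used here. Per the labels, total RNA of whole animals was extracted with TRIzol and made into libraries with a KAPA kit. The 5 summary rows of each file were dropped; they held 80.7 to 83.2% of all entries. Of aligned reads 57.7 to 61.8% were ambiguous and 33.5 to 38.5% were assigned. Of 61451 transcripts, 56781 were matched to the WBcel235 (ce11) annotation by identifier and 4581 by sequence name, and 89 (0.0486% of counts) kept their own name; counts were summed over 46907 genes.

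All 10 libraries were fitted with edgeR 4.0.16 in R 4.3.3 (filterByExpr with a minimum count of 10, TMM, glmQLFit and glmQLFTest, 1 term per strain, 5 residual degrees of freedom), with Benjamini-Hochberg adjustment over 12267 genes and a threshold of 0.05. SEs were worked back from the F statistic. CPM use TMM library sizes. Members, the 61 gene lists and the tests were chosen with earlier results of these data known. Named genes were unc-104 and unc-16, and up to 4 members per list by gap (2 by level where all overlap). Per direction, the 10 called genes with the largest fold change and the 15 with the largest gap between groups were added. For these the mean count over the 4 libraries was 50 or more and the symbol had letters, a hyphen and a number. Genes known by a sequence name were thus left out, among them strongly changed ones such as R03H10.6 (log2 fold change 4.39, adjusted p = 0.0144). Others are marked. Alternatives covered normalization, filters, DESeq2 1.42.0, samples in the fit, a replicate block, gene model, thresholds and each library left out. Figures were drawn with matplotlib 3.10.9 under Python 3.11.15.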

Additional observations from a re-analysis of the deposited data

Results flagged for a closer look

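The 9 genes given here, called against R9Q, also differed between R9Qunc-16 and the mean of R9QT102I and R9QG265R, which is the test of whether the suppressed strains' effects against R9Q differ. The log2 difference was 5.55 for hsp-70 (adjusted p = 0.00467), 4.99 for fbxa-163 (adjusted p = 0.00467), 4.83 for tbb-6 (adjusted p = 0.00217), 3.49 for abu-10 (adjusted p = 0.00547), 3.14 for irg-2 (adjusted p = 0.00369), 2.45 for abu-11 (adjusted p = 0.0437) and 2.09 for lam-3 (adjusted p = 0.0166). It was -3.06 for gst-4 (adjusted p = 0.0253) and -1.65 for srlf-37 (adjusted p = 0.0374). Of genes described outside the naming rule or without a call against R9Q, the difference was 3.76 for sod-5 (adjusted p = 0.00467), 2.31 for crn-4 (adjusted p = 0.00983), 1.45 for smc-5 (adjusted p = 0.0175) and 1.26 for crn-2 (adjusted p = 0.0253). Each rests on edgeR's quasi-likelihood test over 6 libraries of 3 strains within the fit of all 10. Their calls were not followed one by one through the alternative settings for this contrast.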

How the results depend on the processing

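The called counts moved with the setting. The directions of the called genes could hardly move, because all of these genes were separated. Higher and lower calls against R9Q, 50 and 32 as reported, became 0 and 0 at an adjusted p of 0.01 and 263 and 186 at 0.1, 881 and 382 without a count filter, 85 and 52 with a filter of 5 CPM in 2 libraries, 795 and 334 with DESeq2, 718 and 813 with a term for the 3 libraries of mitochondrial share under 0.1%, and 0 and 0 with the 4 libraries alone. Genes with 1 transcript gave 94 higher calls. Chosen after seeing the data, leaving out those 3 libraries gave 3283 and 3278, and leaving out the WT libraries 0 and 0.

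Calls against WT (547) became 68 and 1356 at the 2 thresholds, 1672 without a filter, 1659 with DESeq2, 2508 with the library term, 0 with the compared libraries alone and 7040 without the 3 libraries. Calls against the other suppressed strains (107) became 23, 357, 929, 573, 1087, 0 and 6178 in the same settings, 167 with 1-transcript genes and 23 without WT. Genes separated upward and downward (492 and 519) were 2802 and 3645 with any gap and 126 and 73 with a 4-fold gap.

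With each library left out in turn, higher calls ranged from 0 to 353, lower calls from 0 to 368, calls against WT from 7 to 1448, calls against the other suppressed strains from 17 to 966, and separated genes from 682 to 1618 upward and from 784 to 1925 downward; a strain left with 1 library is assumed to vary like the others. Replicate numbers did not pair the libraries: the correlation of within-strain differences between R9Q and R9Qunc-16 was -0.013, and pairs of strains ranged from -0.641 to 0.613. With the replicate block, 9 higher and 9 lower genes were called, all 18 among the 82, with 218 against WT and 34 against the other suppressed strains.

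Scaling by DESeq2 size factors or without mitochondrial and rRNA genes kept 82 and 81 of the 82 calls and moved the median of all genes from -0.045 to 0.022 and 0.033. Of 133 genes followed through 21 alternatives, unc-16 changed sign, with 0.44 under the library term, 0.30 without R9Qunc-16 replicate 2 (with single libraries left out it ranged from -1.69 to 0.30) and 0.35 without the 3 libraries.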
